A study of Vitis vinifera with 45 samples.

Results

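The berries described here came from graft-free vines of Crimson Seedless (CS), a red seedless table grape (Vitis vinifera), and were compared between the stages DAF75 and DAF105, named in the sample labels for the days after flowering (DAF). The libraries were chosen by graft type and stage alone, which gave 3 libraries at DAF75 and 3 at DAF105, 6 of the 45 in the series. The series holds RNA-seq of berry skins from 5 graft types with the same CS scion, each sampled at DAF45, DAF75 and DAF105 with 3 biological replicates. Graft-free CS vines grow on their own roots. The other types were self-grafted CS (CS/CS) and 3 heterografts, in which the scion stood on a commercial rootstock, 101-14, 110R or SO4. No treatment was applied, and all vines stood in one field under the same management. Each sample pooled the skins of several berries, so a library is an average over berries, and the p-values given here measure the spread between the 3 libraries of a stage. Sampling date and berry stage are the same factor in this design, so that effects of the season and of development cannot be told apart.

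Grape berries grow in a double-sigmoid curve. At veraison, the onset of ripening, they soften, gather sugar and lose acids and chlorophyll, and the skins of red varieties begin to colour. The colour comes from anthocyanins. Phenylalanine ammonia lyase (PAL) and 4-coumarate CoA ligase (4CL) make activated phenylpropanoid units, chalcone synthase (CHS), chalcone isomerase (CHI) and flavanone 3-hydroxylase (F3H) build the flavonoid skeleton, and leucoanthocyanidin dioxygenase (LDOX) makes the coloured anthocyanidins. Expansins and xyloglucan endotransglucosylase/hydrolases (XTH) act on the cell wall of growing and softening fruit, and the photosystems of the young green skin harvest light for carbon fixation.

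The 6 libraries held between 18442527 and 19437257 counts, within the range of 16387269 to 20765329 over all 45. Expression was read from 2 tables for the same 29958 transcripts, one of estimated counts and one of TPM, a level scaled for transcript length and library size. Pearson's r of log expression between replicates of a stage lay between 0.9817 and 0.9881, and no library stood apart by this measure. The identifiers carry no gene names in the files, and none of the 29958 was found in a table of 29591 named grape genes (0 matches). Names were therefore taken from the study's primer table, which pairs 19 identifiers with gene names, and functions from its enrichment table of gene ontology terms, and neither was checked. For the same reason the label of the tissue could only be read on the 19 genes. F3H stood at 219 to 256 TPM at DAF75 and 358 to 739 TPM at DAF105. The transcript named LDOX, whose identity was not tested, stood at 1.81 to 4.05 and 70.3 to 108 TPM. That named CHS, whose identity is in doubt, stood at 0.303 to 2.19 TPM in all 6 libraries. The transcript named CHI was left out here because its name is also in doubt. Marker lists of flesh, seed and leaf cells were not applied. In bulk skin, fewer cells of a type and less RNA per cell cannot be told apart.

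The skins changed broadly between the stages. Of 17958 transcripts tested with edgeR's quasi-likelihood test, 2413 were higher at DAF105 (13.4%) and 3614 were lower (20.1%), 6027 in all (33.6%). A call required a log2 fold change beyond 1 in either direction and a p of at most 0.05 after Benjamini-Hochberg adjustment. The other 11931 were not called. The median log2 fold change over all tested transcripts was −0.01, of those called higher 1.66 and of those called lower −1.91. Among the called, 932 rose and 1696 fell by more than 2 on the log2 scale, and 295 rose and 477 fell by more than 4. Many of the largest changes were against a stage where every library held 3 counts or fewer: 125 of the 295 and 214 of the 477. The 3 libraries of one stage did not overlap with the 3 of the other in TPM for 5912 of the 6027 called transcripts (98.1%). The same held for 75.1% of all transcripts tested. The choice of scaling moved these counts. With counts scaled to library size alone the median shifted by −0.19 on the log2 scale, and the share of calls that were higher went from 40% to 31.4%. In TPM, the median log2 ratio of 15103 transcripts with at least 1 TPM at both stages was −0.40, where the fitted change had a median of 0.02 for the same transcripts. TPM values therefore lie lower at DAF105 than the fitted changes for a typical transcript.

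**Figure D1:**
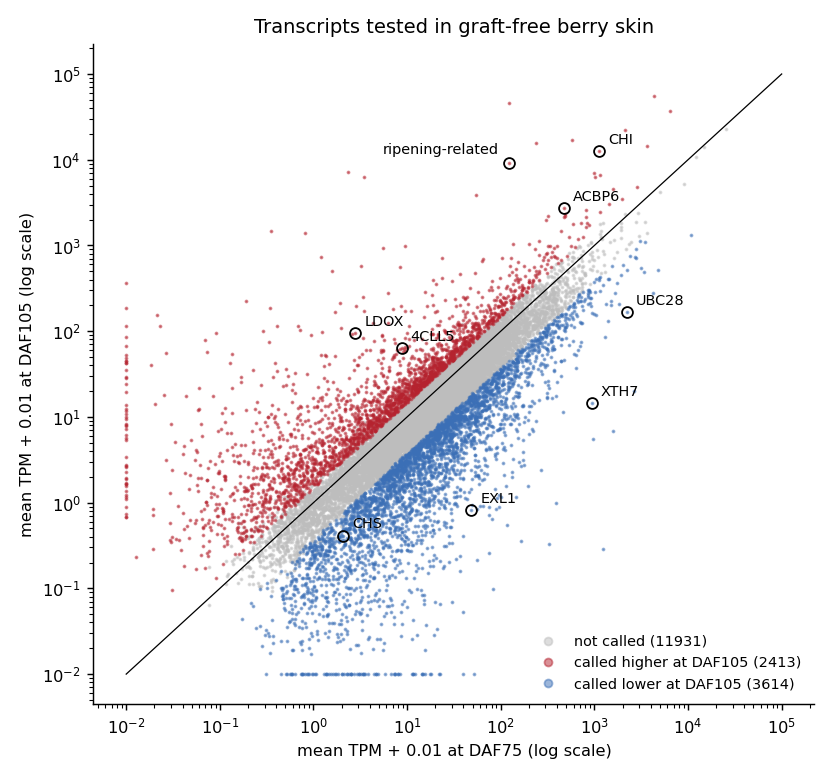
Mean TPM of each tested transcript in graft-free CS at DAF75 (x axis) and DAF105 (y axis), both on log scales after adding the small constant named on the axes, with transcripts called higher or lower at DAF105 coloured and some genes of the primer table labelled. The 2413 transcripts called higher lie above the line of equal TPM and the 3614 called lower lie below it.

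The share of called transcripts differed with their level. Taking the higher of the stage means, 18.4% of the 1000 transcripts under 1 TPM were higher and 19.9% lower. Between 10 and 100 TPM, these shares were 11% and 17.8% of 9251 transcripts. Among the 120 transcripts that reached 1000 TPM, 42 were higher (35.0%) and 37 were lower (30.8%). From 1 to 10 TPM the shares were 15.4% and 22.5%, and from 100 to 1000 TPM 15.6% and 23.6%. Called transcripts were thus most frequent from 1000 TPM and least frequent between 10 and 100 TPM. Why the shares differ was not tested.

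Some called transcripts were near 0 counts at one stage. Such a transcript passed the filter only if all 3 libraries of the other stage held 10 counts or more. Its separation and large change are thus mostly set by the filter. At DAF75, 143 of the transcripts called higher were at or under 3 counts in each library, 48 of them at 0 in all 3. At DAF105, 47 of the 143 reached 10 TPM. In the other direction, 266 transcripts called lower were at or under 3 counts in each library at DAF105, 76 of them at 0, and 43 of the 266 had stood at 10 TPM or more at DAF75. The number of transcripts with at least 1 TPM went from 16987–17159 per library at DAF75 to 16219–16357 at DAF105, and the number with at least 100 TPM from 1815–1878 to 1334–1377.

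The 19 genes of the study's primer table are those for which a name and a sequence could be given. Of these, 18 were tested, 8 were higher at DAF105, 7 were lower and 3 were not called, and 17 had no overlap between the stages. These counts stand beside a background of 13.4% higher, 20.1% lower and 75.1% without overlap among all transcripts tested. The study chose the genes on these samples, so the counts are no independent evidence of a direction. The primers of 4 of them, named CHI, LDOX, ripening-related protein-like and XTH7, are printed as the study lists them beside these names. They were not aligned to any sequence, so they do not settle what the transcripts encode. The first sequence of each line is from the column of forward primers, whose heading gives the opposite direction to that of the reverse column, and the direction was not checked.

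CHI forward: ggagtccttttggcagcctt
CHI reverse: caccggaagaaccaccactt
LDOX forward: ccctctttgtccatgtcggt
LDOX reverse: attgccttatggggaggtgc
ripening-related protein-like forward: ttcagagcgcatcgtagcat
ripening-related protein-like reverse: catgctctttgtcacagccg
XTH7 forward: tggtgggagggaactgcata
XTH7 reverse: ttagatgcctgcgacacact

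Of the genes that the primer table names after phenylpropanoid and flavonoid enzymes, 4 of 7 tested were higher at DAF105 and 2 were lower, with a median log2 fold change of 1.5 against −0.01 over all transcripts. One of the higher genes is the transcript named CHI and one of the lower is that named CHS, and for both the name is in doubt, so the count may not be that of the pathway. The transcript named LDOX (VIT_18s0001g03430) stood at 1.81, 2.48 and 4.05 TPM at DAF75 and at 70.3, 108 and 106 TPM at DAF105. All 3 libraries at DAF105 were far above all 3 at DAF75, a log2 fold change of 5.50 (SE 0.28, adjusted p = 3.02e-06). Its name is that of an enzyme of a late step of anthocyanin synthesis. Whether it encodes that enzyme was not tested, so here and below its values are those of this identifier only. F3H (VIT_18s0001g14310), an early flavonoid enzyme, was already expressed at DAF75, at 256, 246 and 219 TPM, and reached 739, 358 and 412 TPM at DAF105. Replicate 1 was higher than the other two, and the log2 fold change was 1.5 (SE 0.27, adjusted p = 0.00147). A 4CL-like gene, 4CLL5 (VIT_16s0050g00390), went from 5.54, 7.80 and 12.8 TPM to 65.2, 63.1 and 61.6 TPM, 3.30 on the log2 scale (SE 0.27, adjusted p = 2.4e-05), and its libraries at DAF105 lay close together. Another 4CL-like gene, 4CLL2 (VIT_18s0001g00290), moved the other way, from 128, 137 and 147 TPM to 38.0, 36.5 and 31.1 TPM, a fall by 1.53 on the log2 scale (SE 0.11, adjusted p = 9.87e-06). The 2 genes named as 4CL-like thus changed in opposite directions.

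The transcript named CHI (VIT_05s0094g00350) was among the most abundant of the skin at DAF105. It stood at 689, 1321 and 1359 TPM at DAF75 and at 15246, 11904 and 10567 TPM at DAF105, without overlap and with a log2 fold change of 3.91 (SE 0.31, adjusted p = 2e-05). The enrichment table lists the same identifier under cell wall organization or biogenesis, together with its neighbours VIT_05s0094g00330 and VIT_05s0094g00340, and which of these names describes it was not tested, so its values are not a measure of chalcone isomerase. VIT_05s0094g00340 went from 98.8, 379 and 230 TPM to 21520, 13786 and 11894 TPM (log2 fold change 6.47, SE 0.57, adjusted p = 3.19e-05). VIT_05s0094g00330 went from 8.55 ± 4.75 to 197.6 ± 75.7 TPM (SD, n = 3 libraries each). Both neighbours had counts that were not whole numbers, in 3 and 6 of the 6 libraries, so reads may be split between similar copies and their single values are uncertain. A sum over neighbours is less affected by a split among them. The sum given here leaves out CHI itself, so reads shared with CHI would still move it. Over the 49 other transcripts within 25 identifier steps of CHI, the summed level was 1008, 1337 and 1135 TPM at DAF75 and 22489, 14674 and 12766 TPM at DAF105. Of the 31 tested there, 4 were higher and 6 were lower, near the background of 13.4% and 20.1%, and VIT_05s0094g00340 alone made up most of the sum at DAF105.

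The transcripts that the primer table names CHS and PAL1 were weakly expressed in graft-free skins. Whether VIT_16s0100g00950 encodes chalcone synthase is in doubt and was not tested, so its values are those of this identifier and not a measure of that enzyme. It stood at 2.19, 1.91 and 2.14 TPM at DAF75 and at 0.307, 0.599 and 0.303 TPM at DAF105. These levels rest on 11 to 13 counts per library at DAF75 and 2 to 4 at DAF105. Its counts were not whole in 4 of the 6 libraries, so it may share reads with a similar gene. The log2 fold change was −1.95 (SE 0.45, adjusted p = 0.00523), and the call was kept without each library at DAF105. Without any library at DAF75 the transcript no longer passed the filter on counts, and in 1 fit of all 45 libraries it was not called. PAL1 (VIT_16s0039g01320), at the entry of the pathway, had 0 to 3 counts per library at DAF75 and 5 to 14 at DAF105, too few for the test. The ratio of its counts was 5.08 with an exact 95% interval of 2.06 to 15.1, which covers counting error only. The counts of PAL1 were not whole in 3 of the 6 libraries, so reads may be split between similar copies. The interval does not cover such a split. 4CL1 (VIT_11s0052g01090) stood at 7.17, 2.85 and 3.64 TPM and then at 4.24, 4.80 and 3.86 TPM, and its stages overlapped (log2 fold change 0.36, SE 0.31, adjusted p = 0.334). Within 25 identifier steps, 21 of the 48 transcripts around PAL1 and 28 of the 43 around CHS were under 1 TPM in all 6 libraries. Over all 29958 transcripts, 16219 to 17159 per library reached 1 TPM, and the share under 1 TPM in all 6 was not counted. Low levels near these genes are therefore not read as a trait of their neighbourhoods. Around PAL1, 7 of 30 tested were higher and 4 lower, and around CHS 1 of 22 was higher and 3 were lower, beside the background of 13.4% higher and 20.1% lower.

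Both cell wall genes of the primer table changed, in opposite directions. The expansin EXPA11 (VIT_18s0001g01130), of a family that loosens walls, went from 228, 483 and 346 TPM to 1031, 795 and 689 TPM, a log2 fold change of 1.67 (SE 0.28, adjusted p = 0.00101). XTH7 (VIT_00s0386g00050), named for enzymes that cut and rejoin xyloglucan chains, went from 1291, 578 and 935 TPM to 15.4, 16.4 and 11.3 TPM. Every library at DAF105 was far below every library at DAF75, and the gene fell by 5.65 on the log2 scale (SE 0.33, adjusted p = 4.83e-06). The transcript named ripening-related protein-like (VIT_06s0004g02560) had the largest rise among the tested genes of the primer table, from 34.1, 222 and 112 TPM to 12346, 8569 and 6776 TPM (log2 fold change 6.64, SE 0.72, adjusted p = 9.51e-05). Its replicates at DAF75 spread widely, and all of them lay far below DAF105.

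**Figure D2:**
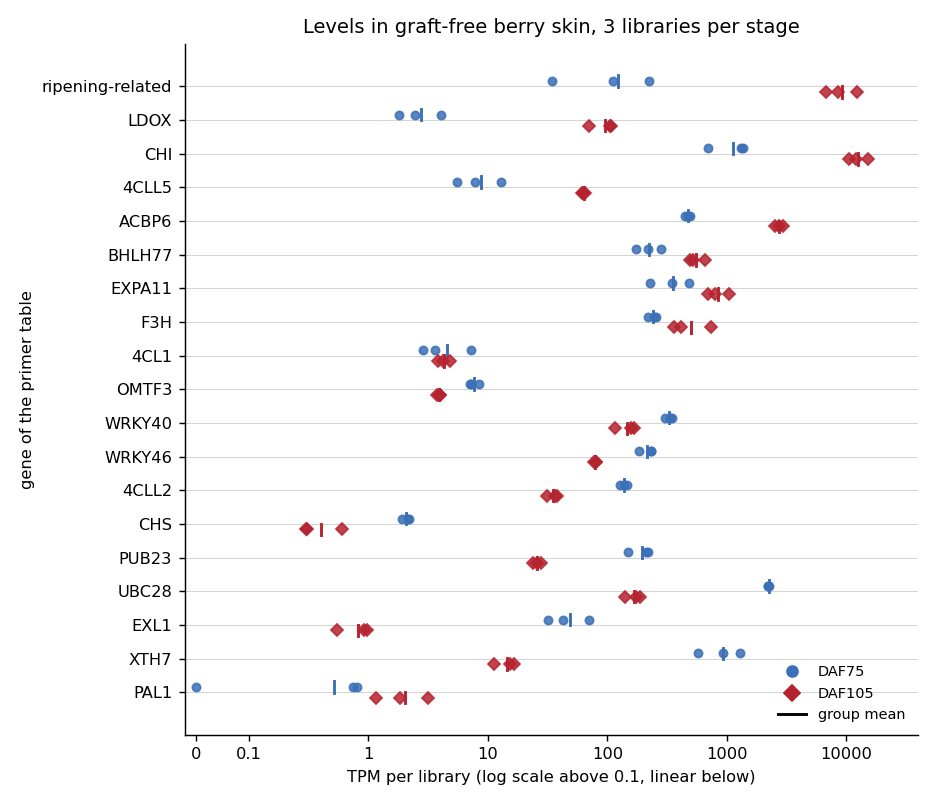
TPM (log axis) of the 19 genes of the primer table in each graft-free library at DAF75 (circles) and DAF105 (diamonds), with a tick for the mean of a stage; the axis is linear below 0.1 TPM. CHI rises from 689–1359 to 10567–15246 TPM, LDOX rises from 1.81–4.05 to 70.3–108 TPM, and XTH7, UBC28 and EXL1 fall without overlap.

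Among the regulators, BHLH77 (VIT_17s0000g00430), named as a basic helix-loop-helix transcription factor, rose from 175, 280 and 219 TPM to 653, 520 and 492 TPM, 1.73 on the log2 scale (SE 0.20, adjusted p = 0.000121). WRKY46 (VIT_15s0046g01140), of a family of transcription factors linked to stress responses, went from 184, 230 and 231 TPM to 80.8, 77.0 and 79.9 TPM. Its fall by 1.02 on the log2 scale (SE 0.11, adjusted p = 8.7e-05) lay near the threshold, and the call was kept in 3 of the 6 fits without 1 library. WRKY40 (VIT_09s0018g00240) stood at 304, 334 and 346 TPM and then at 166, 157 and 116 TPM. Its stages did not overlap, but the log2 fold change of −0.73 (SE 0.14, adjusted p = 0.00214) did not pass the threshold on size. OMTF3 (VIT_15s0048g02200), of neither family, also missed it, with 8.47, 7.27 and 7.10 TPM followed by 4, 3.97 and 3.78 TPM (log2 fold change −0.53, SE 0.14, adjusted p = 0.00863).

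Both ubiquitin genes were lower at DAF105. UBC28 (VIT_02s0025g01050), named for a ubiquitin-conjugating enzyme, had 3 close values at DAF75, 2256, 2212 and 2215 TPM, and 186, 172 and 141 TPM at DAF105, and fell by 3.35 on the log2 scale (SE 0.13, adjusted p = 1.24e-06). PUB23 (VIT_08s0105g00190), an E3 ubiquitin ligase that attaches ubiquitin to its targets, went from 211, 150 and 219 TPM to 23.8, 25.6 and 27.6 TPM. Its adjusted p was 5.4e-06 in the same test, and its counts were not whole in any of the 6 libraries, so it may share reads with a similar gene. ACBP6 (VIT_02s0033g01330), an acyl-CoA-binding protein of lipid transport, rose from 488, 442 and 476 TPM to 2947, 2711 and 2502 TPM, 2.88 on the log2 scale (SE 0.10, adjusted p = 1.19e-06). EXL1 (VIT_16s0022g01430) went from 70.1, 32 and 42.8 TPM to 0.548, 0.913 and 0.983 TPM and fell by 5.46 (SE 0.37, adjusted p = 8.98e-06). It was close to silent in every library at DAF105.

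Beyond the primer table, 2 transcripts listed under cell wall and glycosyl transferase terms had some of the largest rises among annotated transcripts with at least 10 TPM. VIT_06s0061g00550 went from 1.06, 4.63 and 3.82 TPM to 625, 469 and 657 TPM (log2 fold change 7.94, SE 0.46, adjusted p = 4.65e-06). VIT_02s0012g02220 went from 0.924 ± 0.304 to 91.2 ± 29.1 TPM (SD, n = 3), a log2 fold change of 7.04. Glycosyl transferases add sugars to polysaccharides and to small molecules, and a further transcript with this term, VIT_04s0023g01290, had 0 to 2 counts per library at DAF75 and 342 to 765 at DAF105. The ratio of its counts was 695 (exact 95% interval 238 to 3376). VIT_07s0185g00050, under the cell wall term, had no counts at DAF75 and 4.33, 14.8 and 9.41 TPM at DAF105, at least 59.5-fold higher against a floor of 3 counts per library. Smaller rises under the cell wall term were those of VIT_13s0047g00230, from 0.679 to 12.8 TPM on average (log2 fold change 4.65), and VIT_05s0049g00010, from 2.93 to 21.3 TPM (log2 fold change 3.30).

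Of the 22 identifiers read for cell wall organization or biogenesis, out of 30 in a shortened row of the enrichment table, 20 of 21 tested were higher at DAF105 and none was lower (0), with a median log2 fold change of 1.91. Their summed level went from 1177, 2447 and 2220 TPM to 39334, 27706 and 24665 TPM, most of it from CHI and VIT_05s0094g00340. Glycosyl transferase activity had 16 of 21 tested higher (22 of 43 read, median log2 fold change 1.79) and coenzyme metabolic process 17 of 21 (22 of 27 read, median 1.52). The lists were chosen by the study from heterografts against CS at DAF75. That comparison used the same 3 CS libraries at DAF75, so the lists are not independent evidence of the direction seen here. The background of higher calls was 13.4%, and the same limits hold for the complete lists described next.

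The complete list for phosphoenolpyruvate carboxykinase, which makes phosphoenolpyruvate from oxaloacetate and links organic acids to sugar synthesis, was higher in 4 of 4 tested transcripts (median log2 fold change 2.55). Its summed level was 936, 1200 and 993 TPM at DAF75 and 4478, 5579 and 4656 TPM at DAF105, without overlap. VIT_00s2840g00010 alone went from 436, 561 and 466 TPM to 2068, 2724 and 2194 TPM (log2 fold change 2.57). VIT_00s2576g00010 and VIT_00s1995g00010 rose by similar amounts, 2.52 and 2.79 on the log2 scale. Counts of these 3 were not whole in 5 or 6 of the 6 libraries, so they may share reads, and their single values are uncertain. For ferric iron binding, a property of iron storage proteins, 3 of 4 were higher (median 1.37). The largest rise there was in VIT_01s0011g06290, from 2.93, 4.59 and 6.10 TPM to 18.3, 37.8 and 33.6 TPM (log2 fold change 3.13, SE 0.33, adjusted p = 7.67e-05).

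Transcripts of the photosystems, the chlorophyll-protein complexes that capture light, fell together. This list and those of the next paragraphs are terms the study gives as downregulated in heterografts against CS at DAF75. That choice used the same 3 CS libraries at DAF75, so the lists are not independent evidence of a fall. The background of lower calls was 20.1%. For the term photosystem, 17 of 17 tested transcripts were lower at DAF105 (median log2 fold change −3.62), 12 of 12 for photosystem I (−4.03), 13 of 13 for photosystem II (−3.62) and 8 of 8 for light harvesting in photosystem I (−4.83). The summed level of the photosystem list went from 4475, 3645 and 3868 TPM to 358, 279 and 253 TPM, and that of light harvesting from 1337, 980.0 and 1082 TPM to 85.7, 62.1 and 54.5 TPM. The most abundant of the named members, VIT_05s0020g03180 of photosystem I, went from 1406, 1231 and 1241 TPM to 106, 82.3 and 69.1 TPM (log2 fold change −3.51, SE 0.18, adjusted p = 2.83e-06). Some members of the light-harvesting list fell to almost nothing. VIT_10s0003g02900 went from 102, 58.2 and 61.7 TPM to 0.374, 0.222 and 0.152 TPM (log2 fold change −7.76, SE 0.38, adjusted p = 2.7e-06). VIT_07s0005g02220 went from 93.3, 71.5 and 79.4 TPM to 0.586, 0.508 and 0.817 TPM (log2 fold change −6.58, SE 0.19, adjusted p = 7.37e-07). VIT_00s0181g00180 stood at 17, 13.5 and 12.8 TPM at DAF75 and had no counts at DAF105, at least 51.8-fold lower. Others kept a part of their level. VIT_15s0024g00040, with the smallest fall of the list, went from 495, 384 and 440 TPM to 59.6, 41.2 and 35.3 TPM (log2 fold change −2.85), and VIT_07s0141g00570 of photosystem II went from 583, 493 and 516 TPM to 81.5, 62.4 and 64.0 TPM (−2.57). Replicate 1 was the highest of the 3 libraries at both stages in the sums of the photosystem and light-harvesting lists. For protein-chromophore linkage 9 of 9 and for plastoglobule, a lipid body of the plastid, 7 of 7 were lower (medians −4.33 and −5.32), and these lists share members with the photosystem lists.

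Hormone lists from the same source also fell, beside the background of 20.1% lower. In the auxin mediated signaling pathway, which carries the response to a hormone of fruit growth, 13 of 13 tested transcripts were lower (median log2 fold change −2.28), and their summed level went from 1038, 793 and 929 TPM to 116, 130 and 132 TPM. VIT_06s0004g03130 went from 155, 110 and 127 TPM to 1.58, 2.45 and 1.87 TPM (log2 fold change −5.61). The median member, VIT_05s0062g01120, went from 227, 183 and 209 TPM to 37.1, 29.6 and 27.6 TPM (−2.28). Jasmonic acid is an oxylipin, a signal made from fatty acids and linked to wounding and defense. Of its biosynthetic process 3 of 3 were lower (median −3.25), with sums of 291, 231 and 285 TPM followed by 25.7, 30.3 and 29.3 TPM. VIT_14s0083g00110 of that list went from 179, 147 and 179 TPM to 12.4, 14.3 and 13.0 TPM (−3.25). For oxylipin metabolic process 10 of 12 were lower (median −2.84, and −2.42 with members at the floor set to their bounds), and for jasmonic acid metabolic process 7 of 8 (−2.63, and −2.02 with bounds). The uncalled VIT_09s0002g01080 of the oxylipin list stood at 269, 277 and 283 TPM and then at 138, 118 and 104 TPM (log2 fold change −0.76).

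Lipid metabolism lists, chosen in the same way, also moved down, beside the background of 20.1% lower. Fatty acid biosynthetic process had 13 of 15 tested lower (median log2 fold change −2.80), lipase activity 13 of 14 (−2.32), phospholipase activity 9 of 10 (−2.69), very long-chain fatty acid biosynthesis, which feeds cuticular wax, 3 of 4 (−2.42), and lanosterol synthase activity, a step of sterol and triterpene synthesis, 5 of 5 (−3.44). VIT_13s0067g03890 of fatty acid biosynthesis went from 197, 130 and 193 TPM to 15.8, 10.7 and 14.1 TPM (−3.24). VIT_18s0001g10830 of the lipases went from 25.4, 11.4 and 21.9 TPM to 0.765, 0.805 and 0.659 TPM (−4.28). Lanosterol synthase transcripts were scarce, and without any one of the 3 libraries at DAF75 only 2 of them were called, the others no longer passing the filter on counts. VIT_09s0054g01220 of that list stood at 35.4, 16.8 and 25.6 TPM at DAF75 and at 1.02, 1.35 and 0.741 TPM at DAF105 (−4.20).

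Membrane and transport lists of the same source followed, beside the background of 20.1% lower. Of the transcripts anchored to plasma membrane 15 of 18 were lower (median log2 fold change −2.82), of oligopeptide transport 6 of 6 (−2.42) and of regulation of membrane potential 4 of 4 (−3.48). VIT_17s0000g05070, membrane anchored, went from 865, 484 and 649 TPM to 65.8, 64.3 and 48.4 TPM (−3.05). VIT_01s0150g00250 of oligopeptide transport, which moves short peptides across membranes, went from 97.8, 78.1 and 97.9 TPM to 3.49, 4.24 and 3.65 TPM (−4.15). VIT_02s0154g00260 of the same list was left with 0.0629, 0.0205 and 0 TPM from 17.3, 12 and 17.9 TPM, a ratio of counts of 417 (exact 95% interval 162 to 1530). Abaxial cell fate specification, which sets the underside identity of organs, was lower in 4 of 4 (−3.51), led by VIT_15s0048g00550, from 43.5, 35.6 and 45.2 TPM to 1.51, 1.06 and 0.763 TPM. VIT_10s0116g01780, a transcript of the plasmodesma, the channel between plant cells, went from 1594 ± 473 TPM to 6.79 ± 2.87 TPM (SD, n = 3; log2 fold change −7.44, SE 0.40, adjusted p = 3.45e-06).

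Most tested members of the defense and wounding lists were lower, with medians nearer 0. Regulation of defense response had 9 of 12 tested lower (median log2 fold change −1.30), response to wounding 8 of 9 (−1.34), response to carbohydrate stimulus 4 of 8 (−1.05) and response to chitin 3 of 6 (−0.95). Within these lists, VIT_19s0015g00690 of the defense list went from 939, 912 and 883 TPM to 218, 194 and 180 TPM (−1.83). VIT_12s0035g00900, in the wounding and defense lists, stood at 24.1, 14.8 and 28.2 TPM at DAF75 and had no counts at DAF105, at least 91.6-fold lower. VIT_06s0004g04950 of the chitin list had overlapping levels of 49.0, 45.9 and 61.9 TPM and 64.1, 51.3 and 65.5 TPM (log2 fold change 0.65, not called). The difference between the medians of these lists and those of the others was not tested. In the part that could be read of 2 longer lists, transcription factor activity had 18 of 21 lower (22 of 111 read, median −2.42) and protein kinase activity 20 of 22 (22 of 158 read, −2.74). Over all 28 distinct complete lists of this direction, 136 transcripts were read and 126 tested, of which 111 were lower and none higher (0), with a median log2 fold change of −2.78, or −2.70 with bounds. The background of lower calls was 20.1%, and the study chose these lists with the same DAF75 libraries.

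**Figure D3:**
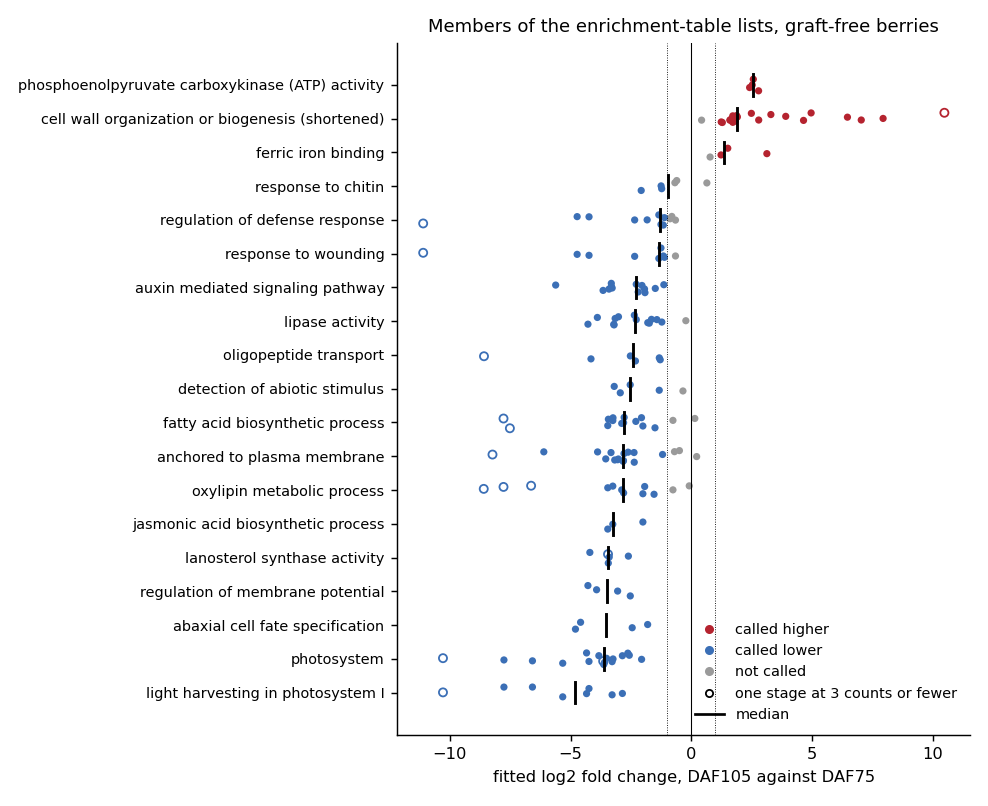
Log2 fold change from DAF75 to DAF105 in graft-free CS (x axis) of each tested member of the gene ontology lists (rows), with points for transcripts, open where one stage held 3 counts or fewer in each library, a bar for the list median and colour for the call. All 4 phosphoenolpyruvate carboxykinase transcripts lie between 2.42 and 2.79, every tested photosystem transcript lies at −2.06 or below, and the chitin list reaches 0.65.

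The most abundant transcripts took a larger part of the total at DAF105. The 10 highest transcripts held 9.20%, 10.3% and 9.79% of the TPM total at DAF75 and 25.2%, 25.1% and 26.4% at DAF105, and the 100 highest held 25% ± 0.483 and 44.1% ± 0.69 (SD, n = 3). At DAF45, the 10 highest had held 10.5% ± 0.971. The difference of 15.8 percentage points between DAF75 and DAF105 had a 2-sided exact permutation p of 0.1, the smallest that 20 splits of 6 libraries allow. Counts scaled to library size, which are not divided by transcript length, gave a difference of 5.18 points for the 10 highest and 8.28 for the 100 highest. The rise was therefore smaller on that scale. Transcripts called higher went from 9.10% ± 0.573 to 44.7% ± 0.696 of the TPM total, and those called lower from 27.8% ± 1.02 to 5.94% ± 0.32, values that the calls themselves select. Of the 10 highest transcripts at DAF105, 8 were called higher and 4 were also among the 10 highest at DAF75. Of the 100 highest, 54 were higher, 4 were lower and 50 were shared. Among the called were 2 transcripts without a name in these sources, chosen for their level outside the naming rule. VIT_19s0090g01350 stood at 4351 ± 1952 and then 54780 ± 14649 TPM (SD, n = 3), and VIT_05s0049g00520 at 123.3 and then 45283 TPM on average. On the falling side, VIT_05s0020g01170, under calcium ion binding, went from 10832 ± 1129 to 1332 ± 78.3 TPM (log2 fold change −2.63), and the unnamed VIT_13s0073g00560 from 4800 ± 428.5 to 523 ± 54.2 TPM.

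**Figure D4:**
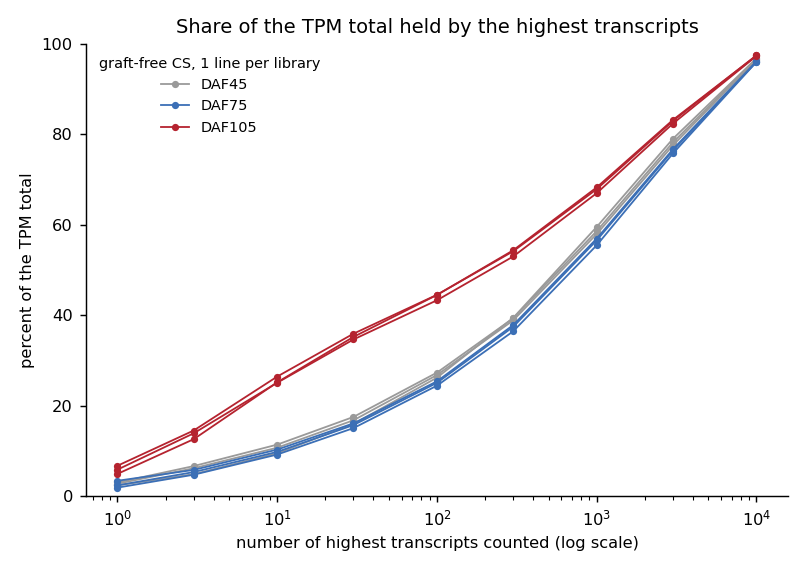
Percent of the TPM total (y axis) held by the highest transcripts, against how many of them are counted (x axis, log scale), in each graft-free library at DAF45, DAF75 and DAF105. The 3 libraries at DAF105 lie above all others, with 25.1% to 26.4% for 10 transcripts against 9.20% to 10.3% at DAF75, and the libraries at DAF45 and DAF75 run close together.

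The replicates did not spread alike. Among transcripts called higher, replicate 1 at DAF75 was the library farthest from DAF105 for 45.8% of them, replicate 2 for 28.6% and replicate 3 for 25.7%. Among those called lower, replicate 1 at DAF75 was again the farthest, for 52.9%. At DAF105 the shares were more even, between 26.4% and 39.5%. Replicate 1 at DAF75 was thus the library most unlike the later stage. Its values for the ripening-related transcript, CHI and EXPA11 were the lowest of the 3 and those for XTH7 and EXL1 the highest. Other genes of the primer table went the other way. F3H and ACBP6, higher at DAF105, were highest in replicate 1 at DAF75. 4CLL2, WRKY40 and WRKY46, lower at DAF105, were lowest in that library. Leaving it out gave 2270 higher and 3022 lower, close to the counts without replicate 2 (2303 and 3108) or replicate 3 (2316 and 3054). The median coefficient of variation of transcripts with at least 10 TPM lay between 8.56% and 11.7% in the called groups at either stage.

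The interval before, from DAF45 to DAF75, held fewer changes in the same vines. Of 17636 transcripts tested, 944 were higher (5.35%) and 1214 were lower (6.88%) at DAF75, 12.2% in all. The 2 intervals share the 3 libraries at DAF75, so their values are given side by side only. CHI had a mean of 546 TPM at DAF45, 1123 TPM at DAF75 and 12572 TPM at DAF105. LDOX had 2.47, 2.78 and 94.7 TPM, and the ripening-related transcript 65.4, 122.8 and 9230 TPM. UBC28 had 2116, 2228 and 166 TPM and XTH7 971, 935 and 14.4 TPM. In all 5 genes the means at DAF45 and DAF75 lay closer to each other than to DAF105. 4CLL5 differed, with a call of lower from DAF45 to DAF75 (log2 fold change −1.35) before its rise. By lists, 3 of 18 photosystem transcripts were lower from DAF45 to DAF75 (median −0.31), and 0 of 4 phosphoenolpyruvate carboxykinase transcripts were called. For the auxin list 3 of 13 were higher and 0 lower in that interval (median 0.29), and for lipase activity 1 of 14 was higher and 5 lower (−0.85). The median transcript among those called higher from DAF75 to DAF105 had means of 4.31, 4.47 and 13.8 TPM at the 3 stages, and among those called lower 12.4, 15.3 and 2.43 TPM.

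The same interval was measured in the other graft types. In CS/CS, 28.4% of 18355 tested transcripts were called, 12.7% higher and 15.8% lower. Graft-free CS and CS/CS shared 1247 transcripts called higher (51.7% of those in CS and 53.7% of those in CS/CS) and 1978 called lower (54.7% and 68.3%), and 32 and 53 of the CS calls were called the opposite way in CS/CS. The heterografts had fewer calls. In CS/101-14, 9.93% of 17646 tested were called (4.63% higher, 5.3% lower), in CS/110R 19.4% of 17593 (6.88% higher, 12.5% lower) and in CS/SO4 16.6% of 17429 (6.33% higher, 10.2% lower). With CS/101-14, CS shared 361 higher (15% of CS, 44.2% of CS/101-14) and 637 lower (17.6%, 68.1%), and 32 and 69 of the CS calls were called the opposite way. With CS/110R it shared 630 higher (26.1%, 52.0%) and 1357 lower (37.5%, 61.5%), and with CS/SO4 631 higher (26.2%, 57.2%) and 1152 lower (31.9%, 64.6%). For CS/110R 135 and 59 calls were opposite, and for CS/SO4 90 and 71. The graft types share no library, so these overlaps do not arise from shared controls.

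The difference between intervals was tested with an interaction term. Against CS/CS, 919 transcripts (4.83%) had a more positive change in graft-free CS and 1766 (9.27%) a more negative one, 14.1% of 19046 tested. Among the 919, 394 were called higher and 81 lower within CS, and among the 1766, 132 were higher and 1003 lower. Against the mean of the 3 heterografts, 1999 (10.5%) changed more positively, of which 1359 were called higher in CS, and 2216 (11.6%) more negatively, of which 1769 were called lower in CS, 22.1% of 19068 in all. Of the 19 primer-table genes, 10 were called against CS/CS and 13 against the heterografts. The study chose these genes on these samples, so the counts are no independent evidence of a difference between graft types.

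Several named genes showed where the graft types stood. In CS/CS, the transcript named CHI had 26.7, 7.33 and 18.3 TPM at DAF75 and 11998, 11267 and 12532 TPM at DAF105. At DAF105 that overlaps with graft-free CS, so the larger rise in CS/CS (log2 fold change 9.76 against 3.91, interaction −5.86, SE 0.57, adjusted p = 0.000266) began from a lower level at DAF75. In the heterografts the same transcript already averaged 12258, 18067 and 11015 TPM at DAF75 (CS/101-14, CS/110R and CS/SO4) and 10718, 8773 and 10108 TPM at DAF105. The change in CS exceeded theirs by 4.18 on the log2 scale (SE 0.25, adjusted p = 8.86e-11). XTH7 showed the mirror order at DAF75, with 5180, 5043 and 3565 TPM in CS/CS and heterograft means of 89.7, 181 and 115 TPM, and graft-free CS between them. The means of LDOX at DAF75 were also lowest in CS/CS and highest in the heterografts, with overlap between CS/CS and graft-free CS, but the gene rose more in graft-free CS than in CS/CS (interaction 2.38, SE 0.66, adjusted p = 0.0224), with 4.61, 14.9 and 15.8 TPM in CS/CS at DAF105 against 70.3 to 108 TPM in CS. The heterograft means of LDOX at DAF105 were 69.6, 130 and 118 TPM. In the list of photosystem transcripts, CS/CS had 16 of 16 tested lower (median −2.15, against −3.62 in CS), in the auxin list 14 of 14 (−3.82, against −2.28), in the phosphoenolpyruvate carboxykinase list 4 of 4 higher (1.77, against 2.55) and in the part read of the cell wall list 18 of 21 higher (2.66, against 1.91). The background of calls in CS/CS was 12.7% higher and 15.8% lower. The differences between these medians were not tested.

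**Figure D5:**
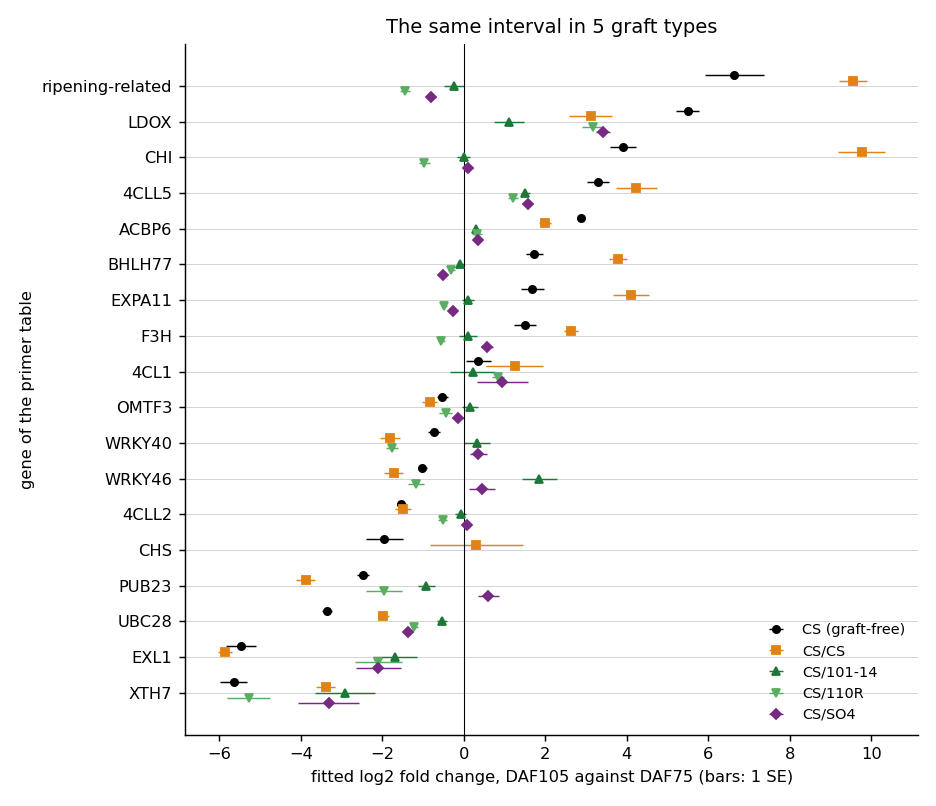
Log2 fold change from DAF75 to DAF105 (x axis) of the primer-table genes (rows) in graft-free CS, CS/CS and the 3 heterografts, with points for fitted changes and bars for standard errors. CHI rises by 3.91 in CS and 9.76 in CS/CS while its heterograft points lie between −0.97 and 0.10, and LDOX rises by 5.50 in graft-free CS against 3.12 in CS/CS; genes without a point in a graft type were not tested there.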

How the data were processed

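RNA-seq of berry skins was compared between graft-free CS at DAF105 (3 libraries) and at DAF75 (3 libraries), with CS at DAF45 and the other graft types for reference. Samples were grouped by their titles and the note of the study's mapping table, which alone says which of the titles Crimson and Crimson Seedless is graft-free. The authors used fastp to clean the reads, HISAT2 to align them to the V. vinifera 12X genome, StringTie to assemble them and HTSeq to count them; versions are not given in the sources used here. The authors deposited expected counts without normalization, of which 87.6% of those above 0 are whole, so they are not plain HTSeq counts, and TPM, which they scaled by transcript length to one total per library. No column was left unassigned (0 columns). With at least 18442527 counts in each of the 6 libraries, counting error bears mainly on weakly expressed transcripts.

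Counts were rounded. A transcript was tested if 3 or more of the compared libraries held 10 counts or more, with TMM normalization and the quasi-likelihood test of edgeR 4.0.16 in R 4.3.3, with Benjamini-Hochberg adjustment over all transcripts tested. Interactions were fitted over CS and CS/CS, or CS and the heterografts, at both stages. A call required an absolute log2 fold change above 1 and an adjusted p of at most 0.05. Against a group without counts a fold is a lower bound (floor of 3 counts per library), and with 1 to 3 counts a ratio of counts is given with an exact conditional 95% interval. Means ± SD are in TPM. In a simulation, 200 transcripts with a mean of at least 50 counts were changed by 2 on the log2 scale, in random directions. Of these, 199 were recovered with 8 false calls for DAF105 against DAF75 (17705 transcripts). The interaction with CS/CS gave 169 with 9 false calls (18733), and that with the heterografts 192 with 4 (18678). All other simulated transcripts were held equal. The data held far more changes, more of them lower, so these numbers do not measure false calls under so broad a shift.

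The named genes are the 19 of the primer table, transcripts of the enrichment table with the largest changes among those called, without overlap and with a mean of at least 10 TPM, the most abundant of them, and those of the largest interactions. Others are named as chosen for their values. Enrichment terms that the table shortens were read in part. Members and lists were chosen with earlier results of these data known. Alternatives were DESeq2 1.42.0, RLE (relative log expression) size factors, library size alone (added after seeing the data), filters of 1 count or a mean of 1 TPM, 1 joint fit of the 45 libraries, blocking on the replicate number, other thresholds and leaving out each library. Python 3.11.15 served for tables and figures, with pandas 2.3.3, scipy 1.17.1 and matplotlib 3.10.9.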

Additional observations from a re-analysis of the deposited data

Results flagged for a closer look

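For these transcripts the change from DAF75 to DAF105 differed between graft-free CS and another graft type by the interaction test (edgeR's quasi-likelihood test, absolute log2 above 1, adjusted p of at most 0.05). A positive value means a more positive change in graft-free CS. Sizes depend on the prior count where a group is near 0 counts. The primer-table genes were chosen by the study on these samples, so their calls are no independent evidence of a difference between graft types.

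Of the primer-table genes, those that differed from both CS/CS and the heterografts were CHI (−5.86 against CS/CS and 4.18 against the heterografts), the ripening-related transcript (−2.93 and 7.45), EXPA11 (−2.44 and 1.87), BHLH77 (−2.06 and 2.02), F3H (−1.15 and 1.44), PUB23 (1.39 and −1.74), UBC28 (−1.39 and −2.34) and LDOX (2.38 and 2.92). The first 6 of these changed less than in CS/CS and more than in the heterografts, while LDOX rose more, and UBC28 fell more, in graft-free CS than in either. Only the difference from CS/CS was called for XTH7 (−2.26) and WRKY40 (1.08). Only that from the heterografts was called for ACBP6 (2.54), 4CLL5 (1.85), EXL1 (−3.51), WRKY46 (−1.41) and 4CLL2 (−1.38).

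Among transcripts of the enrichment table, the largest differences from the heterografts were those of VIT_04s0023g01290 (7.76), VIT_06s0061g00550 (7.42) and VIT_05s0094g00340 (6.45), which rose in graft-free CS. Those that fell were VIT_08s0007g04950 (−5.66), VIT_06s0080g00420 (−5.38), VIT_12s0134g00490 (−5.32) and VIT_10s0116g01780 (−5.21). The study chose these terms from heterografts against CS at DAF75. Those libraries enter this difference, so its size and direction are partly set by that choice. The same CS libraries enter the differences from CS/CS below. At DAF75, VIT_08s0007g04950 had heterograft means of 0.42, 0.42 and 0.39 TPM, and VIT_12s0134g00490 0.02, 0.23 and 0.19 TPM. The sizes of these differences are therefore uncertain. VIT_06s0061g00550 had heterograft means of 315.8, 465.3 and 330.7 TPM at DAF75 (CS/101-14, CS/110R and CS/SO4), near its 584 ± 101 TPM in graft-free CS at DAF105. VIT_10s0116g01780 had means of 15.4, 33.5 and 27.2 TPM in the heterografts at DAF75, against 1594 TPM in graft-free CS.

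Against CS/CS, VIT_05s0094g00330 (−5.12), VIT_05s0094g00340 (−3.75) and VIT_06s0061g00550 (−3.71) also rose less in graft-free CS. Other enrichment-table transcripts chosen for their difference from CS/CS were VIT_13s0067g02930 (−6.72), VIT_15s0046g00500 (−5.90), VIT_00s0203g00070 (−5.51), VIT_01s0150g00480 (4.89), VIT_07s0141g00270 (3.76), VIT_03s0063g00460 (3.58) and VIT_01s0010g02950 (3.50). VIT_13s0067g02930 stood at 69.7, 120 and 152 TPM in graft-free CS at DAF75 and at 2.28, 1.23 and 2.01 TPM in CS/CS, and at DAF105 at 245 to 387 TPM and 563 to 600.0 TPM. VIT_03s0063g00460 kept 94.9, 114 and 116 TPM at DAF105 in graft-free CS where CS/CS kept 16, 13.9 and 19.5 TPM.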

How the results depend on the processing

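With the adjusted p alone, 5920 transcripts were higher and 6283 lower, against 2413 and 3614 with the fold threshold. Under the other alternatives the counts were 1937–2763 higher and 3022–4238 lower. The numbers of replicates did not pair libraries, with correlations of −0.08, 0.04 and 0.02 between the deviations of same-numbered libraries, and the replicate block gave 2386 higher and 3590 lower. The difference in TPM share was 15.8 points for the 10 highest transcripts and 19.2 for the 100 highest, and 5.18 and 8.28 in counts scaled to library size. Leaving out 1 library moved calls in small lists, mostly through the filter on counts: 2–5 of 5 lanosterol synthase transcripts, 1–2 of the lower phenylpropanoid genes, 0–1 of the lower transcription factors, 1–5 lower neighbours of PAL1, and 0–3 higher and 0–3 lower neighbours of CHS were called. Of 2790 alternative values for 264 named transcripts, 2749 kept the direction and the call, 35 lost it (in 11 transcripts), 3 gained it and 3 reversed. The reversed ones were uncalled: VIT_01s0011g00380 (−0.29 to 0.12 when 1 library was left out, reversed without CS_75 replicate 2), VIT_08s0007g05990 (−0.094 to 0.55, reversed without CS_105 replicate 1) and VIT_18s0001g11900 (−0.032 with library size only). Fold changes of transcripts near 3 counts per library are limited by depth.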

Other observations

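Some neighbouring identifiers were called alike, as counted after the values were seen and with no comparison to the number that unrelated calls would give. In the order of the identifiers, 10 runs of at least 4 consecutive transcripts were called higher and 25 were called lower. The longest higher run held 7, from VIT_19s0090g01340 to VIT_19s0090g01400, and includes VIT_19s0090g01350, the transcript of 54780 TPM at DAF105. The files do not pair these identifiers with names. Whether reads are shared within the run was not tested.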
